A study of Mus musculus with 6 samples.

Results

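The glycine receptors, their anchor and the glycine transporters were followed as a family of 7 genes out of the 23282 entries of the count tables. The members were found by their gene symbols: the receptor subunit genes Glra1, Glra2, Glra3 and Glrb, the scaffold gene Gphn, and the transporter genes Slc6a5 and Slc6a9. Counts were found for 6 of the 7, and these same 6 passed the filter on low values that left 15239 genes for the fit. The family was chosen by earlier reading of these same counts, by labelled group and per library, so the comparison of its members between the groups is given as a description, with no p-value.

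Forebrain RNA came from male C57BL/6J mice aged 8 to 10 weeks, and the sources name no transgene, mutant allele or drug for either group. In the group labelled water avoidance stress (WAS), 3 mice stood for 1 h on a small platform surrounded by water. In the group labelled control, 3 mice stood for 1 h on the same platform without water. Each library is a bulk sample of a single hemisphere after the olfactory bulbs and cerebellum had been removed. The labels call the tissue brain, and the sources used here do not say where the cut toward the brainstem lay. The short headings of the count columns place the letters for stress and control the other way round from the labels and are not defined in the sources. Groups follow the labels here, and each direction would turn around if those headings were taken as the groups.

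Glycine receptors are chloride channels of 5 subunits that inhibit neurons when glycine binds. The alpha subunits, encoded by Glra1, Glra2 and Glra3, carry most of the glycine binding site, and the beta subunit, encoded by Glrb, ties the channel to gephyrin, the product of Gphn. Gephyrin forms the scaffold under inhibitory synapses for glycine receptors and for many GABA-A receptors, and it also catalyses the last steps of molybdenum cofactor synthesis. GlyT1, encoded by Slc6a9, clears glycine mainly into glia, whereas GlyT2, encoded by Slc6a5, reloads the endings of glycinergic neurons. Glycinergic transmission is best known from the spinal cord and brainstem, where the adult receptor is largely made of alpha 1 and beta. In forebrain, alpha 2, alpha 3, beta and gephyrin are more widespread.

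The 4 receptor genes are related in sequence, which matters here because reads with several alignments were counted. On GRCm38 (mm10, the build named in the labels), GENCODE M21 places Glra1 at chr11:55514238-55608198 on the minus strand, Glra2 at chrX:165129017-165327393 on the minus strand, Glra3 at chr8:55940460-56130070 on the plus strand and Glrb at chr3:80843599-80913660 on the minus strand. Between their longest coding sequences, identity over the aligned bases was 74.2% for Glra1 and Glra2, 75.6% for Glra1 and Glra3, and 64.4% for Glra1 and Glrb. The coding window of 75 bases, the length of a read, in which Glra2, Glra3 and Glrb together differed least from Glra1 is shown to let the likeness be read directly. It lies inside a single exon of each gene, at chr11:55536345-55536419 (exon 4 of 9) in Glra1, chrX:165281887-165281961 (exon 4 of 9) in Glra2, chr8:56039667-56039741 (exon 4 of 10) in Glra3 and chr3:80861956-80862030 (exon 5 of 10) in Glrb. The windows are given 5′ to 3′ on the coding strand, and capitals mark bases that differ from Glra1.
Glra1: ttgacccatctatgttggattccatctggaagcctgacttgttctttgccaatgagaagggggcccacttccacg
Glra2: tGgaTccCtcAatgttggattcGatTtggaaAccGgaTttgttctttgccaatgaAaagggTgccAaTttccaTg
Glra3: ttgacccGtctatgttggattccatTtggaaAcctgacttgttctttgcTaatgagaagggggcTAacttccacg
Glrb: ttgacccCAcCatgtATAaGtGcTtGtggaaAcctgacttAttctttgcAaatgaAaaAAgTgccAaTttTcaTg
Even in this most alike window, Glra2 differed from Glra1 at 14 bases, Glra3 at 6 and Glrb at 21. The longest run of identical bases between transcripts of any 2 of the 4 genes was 26, and no member shared a stretch of 50 bases with another member. In the last 500 bases of the transcript, which a 3′ method reads, Glra1, Glra2, Glra3, Glrb, Gphn and Slc6a5 shared no stretch of 50 bases with another annotated gene, while Slc6a9 did.

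Total counts ran from 9248520 to 10502029 per library, and 0.0% of all genes tested passed an adjusted p of 0.05 in edgeR's quasi-likelihood fit (Benjamini-Hochberg), that is 0 genes, beside 22 with DESeq2, 0 with limma and 1104 at an unadjusted p under 0.05 in edgeR. Forebrain markers were high in every library, with 882 to 1126 counts per 1000000 counts of the library total (CPM) summed over 9 genes of cortex and hippocampus. WAS replicates 1 and 3 stood apart from the other 4 libraries in markers of brain regions. Of 17 midbrain markers, 14 were higher in both of them than in each of the other 4 libraries, and of 11 striatal markers in the tables, 9 were lower in both. This split was chosen from these data, and the share of all genes tested that follow it was not counted. WAS replicate 1 and control replicate 2 were also low in choroid plexus markers, with sums of 53.2 and 17.0 CPM against 931 to 1247 CPM in the other libraries. Values of Glra1, Glra3 and Slc6a9 are therefore given with and without these libraries.

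Among the alpha subunits, Glra1 was by far the most variable member. WAS replicates 1, 2 and 3 held 559, 37 and 440 counts of Glra1, and control replicates 1, 2 and 3 held 45, 18 and 35. Scaled to the library total, these were 55.5, 4.00 and 44.1 CPM in the WAS-labelled libraries against 4.28, 1.73 and 3.51 CPM in the control-labelled ones. WAS replicates 1 and 3 were thus high and the other 4 libraries low, and WAS replicate 2 lay inside the control range, so that the groups overlapped. Relative to the control mean, Glra1 stood at 17.5 times in WAS replicate 1, 13.9 times in WAS replicate 3 and 1.26 times in WAS replicate 2. The group means were 34.5 ± 27.1 CPM (SD, n = 3) in the WAS-labelled libraries and 3.18 ± 1.31 CPM (SD, n = 3) in the control-labelled ones. The fit over all genes gave a log2 fold change of 3.41 with a standard error of 0.72. Without WAS replicate 2 the log2 fold change of Glra1 was 3.93 (standard error 0.24), and without WAS replicates 1 and 3 it was 0.29 (standard error 0.49). Without the libraries low in choroid plexus markers, WAS replicate 1 and control replicate 2, it was 2.59 (standard error 0.80). In bulk tissue, fewer cells that express a gene and less of its RNA per cell cannot be told apart, and this holds for every gene described here.

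**Figure D1:**
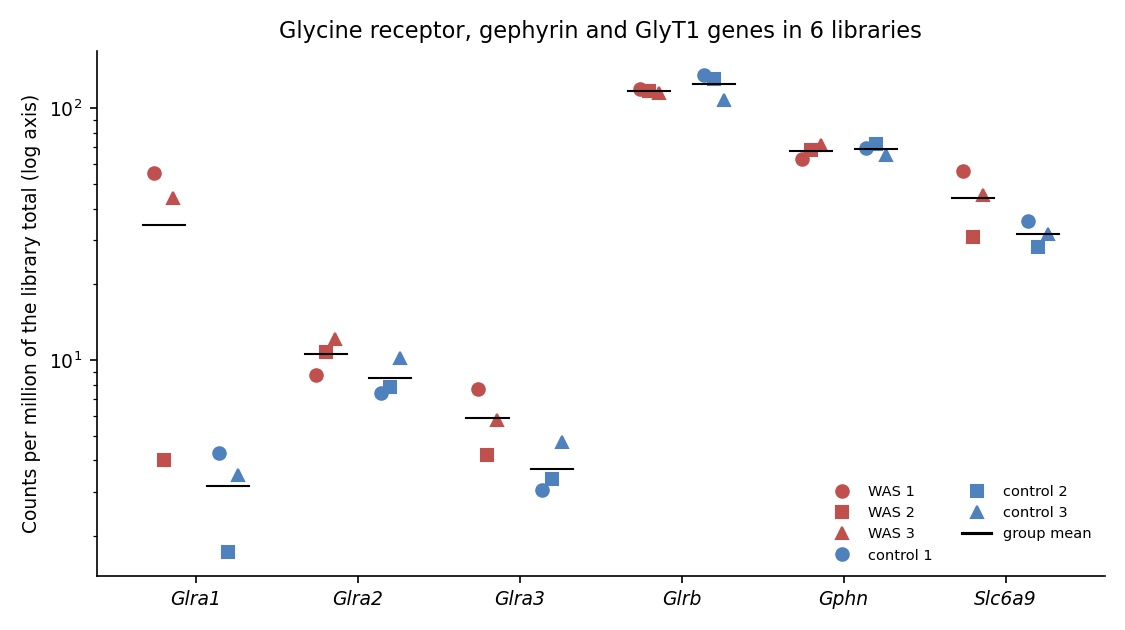
Each point is 1 library, in CPM of the library total on a log axis, for the 6 members with counts. Red points are libraries labelled WAS, blue points those labelled control, the marker shape gives the replicate and black lines are group means. Glra1 spans 1.73 to 55.5 CPM with WAS replicates 1 and 3 on top, whereas Gphn stays between 63.1 and 72.1 CPM.

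Glra2, whose subunit dominates glycine receptors of the immature brain, was measured in a narrow range. Its counts were 88, 100 and 121 in the WAS-labelled libraries and 78, 81 and 102 in the control-labelled ones. The means were 10.6 ± 1.70 CPM (SD, n = 3) and 8.48 ± 1.52 CPM (SD, n = 3), the groups overlapped, and the log2 fold change was 0.28 (standard error 0.21). The highest of the 6 libraries stood at 1.63 times the lowest, against 32.0 times for Glra1.

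Glra3, which encodes a further alpha subunit, had the lowest mean level of the members with counts. The libraries labelled WAS held 77, 39 and 58 counts and those labelled control 32, 35 and 47 counts. The highest 2 libraries were again WAS replicates 1 and 3, with 7.65 and 5.81 CPM, and WAS replicate 2, with 4.22 CPM, lay below control replicate 3, with 4.71 CPM. The log2 fold change of Glra3 was 0.63 (standard error 0.30). It was 0.82 (standard error 0.30) without WAS replicate 2 and 0.15 (standard error 0.42) without WAS replicates 1 and 3. Without WAS replicate 1 and control replicate 2, the log2 fold change of Glra3 was 0.33 (standard error 0.37).

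The make-up of the alpha subunit RNA therefore differed between libraries of the same group. Glra1 took 77.2% of the alpha counts in WAS replicate 1 (95% Clopper-Pearson interval 74.0% to 80.2%) and 71.1% in WAS replicate 3 (67.3% to 74.6%). In WAS replicate 2 it took 21.0% (15.3% to 27.8%). In control replicates 1, 2 and 3 it took 29.0% (22.0% to 36.9%), 13.4% (8.16% to 20.4%) and 19.0% (13.6% to 25.4%). The interval of WAS replicate 2 overlapped those of all 3 control libraries, whereas the intervals of WAS replicates 1 and 3 lay above all the others. These intervals cover counting error within a single library and not the variation between animals. PCR copies were not told apart, so the intervals can be too narrow even for counting error. Glra2 was the most counted alpha gene in the 4 remaining libraries, with 50.3% to 60.4% of the alpha counts. A further alpha gene of the mouse, Glra4, had 1 count in control replicate 1, 2 counts in control replicate 3 and 0 counts elsewhere, all within the 3 counts that a count of 0 allows.

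**Figure D2:**
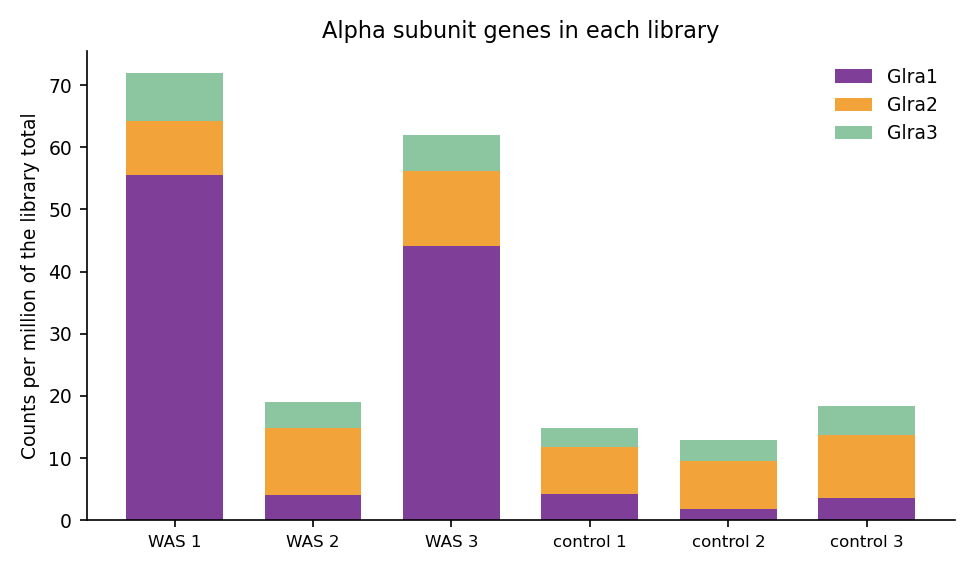
Stacked bars give the CPM of the library total for Glra1, Glra2 and Glra3 in each of the 6 libraries, from 0. The bars of WAS replicates 1 and 3 reach 71.9 and 62.0 CPM through their Glra1 part, and the other 4 bars reach 12.9 to 19.0 CPM.

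Glrb, the gene of the beta subunit, had the highest level of the family. Its counts were 1198, 1081 and 1143 in the WAS-labelled libraries and 1429, 1363 and 1075 in the control-labelled ones. The libraries labelled WAS lay close together at 117 ± 2.26 CPM (SD, n = 3), inside the wider range of those labelled control at 125 ± 15.2 CPM (SD, n = 3). The log2 fold change of Glrb was -0.13 (standard error 0.10). WAS replicates 1 and 3, where Glra1 was high, did not stand out for Glrb, with 119 and 114 CPM. For every 100 counts of Glrb there were 60.4 and 54.2 counts of alpha subunit genes in WAS replicates 1 and 3, against 9.83 to 17.1 in the other 4 libraries. With Glra1 left out of the alpha sum, the same ratio ran from 7.70 to 15.7 over all 6 libraries.

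Gphn (chr12:78226379-78684772, plus strand) was the steadiest member. Its counts were 635, 633 and 711 in the WAS-labelled libraries and 731, 748 and 650 in the control-labelled ones, or 67.6 ± 4.14 CPM (SD, n = 3) and 68.9 ± 3.51 CPM (SD, n = 3). The 2 groups covered nearly the same range, and the highest library stood at only 1.14 times the lowest. The log2 fold change of Gphn was -0.07 (standard error 0.09). Glrb counts per 100 Gphn counts lay between 161 and 195 in all 6 libraries.

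Slc6a9 (chr4:117834506-117875198, plus strand), the gene of GlyT1, had 569, 285 and 452 counts in the WAS-labelled libraries and 376, 291 and 315 in the control-labelled ones. It was once more highest in WAS replicates 1 and 3, with 56.5 and 45.3 CPM, and WAS replicate 2, with 30.8 CPM, lay within the control range of 28.0 to 35.8 CPM. The group means were 44.2 ± 12.9 CPM (SD, n = 3) and 31.8 ± 3.89 CPM (SD, n = 3), and the log2 fold change was 0.44 (standard error 0.19). It was 0.64 (standard error 0.14) without WAS replicate 2 and -0.085 (standard error 0.17) without WAS replicates 1 and 3. Without WAS replicate 1 and control replicate 2, the log2 fold change of Slc6a9 was 0.14 (standard error 0.18).

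Since GlyT1 is largely glial, 9 astrocyte markers were set beside Slc6a9. Their summed level was 4339 to 4469 CPM in the WAS-labelled libraries and 4323 to 4356 CPM in the control-labelled ones, but most of it came from the glutamate transporter gene Slc1a2, with 2638 to 2901 CPM. Of the 9 markers, 4 were higher in both WAS replicates 1 and 3 than in each of the other 4 libraries, namely Aqp4, Gfap, Aldoc and Fgfr3, and 1, Slc1a2, was lower in both. Gfap, the intermediate filament gene of astrocytes, had 896, 412 and 921 counts in WAS replicates 1, 2 and 3 against 632, 379 and 584 counts in the controls. Aqp4, the water channel gene of astrocyte endfeet, had 1119, 741 and 1052 counts against 916, 733 and 683. These 4 markers were thus high in the libraries where Slc6a9 was high, and their part in the Slc6a9 values was not tested. How many of all genes tested split the libraries in this way was not counted.

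The counts of Slc6a9 are uncertain because another gene lies over an end of it. Ccdc24, on the opposite strand at chr4:117866524-117872557, shares 1429 exonic bases with Slc6a9, and all 500 bases at the end of the longest coding transcript of Slc6a9 lie in exons of Ccdc24 or of the non-coding gene Gm17114. The sources do not state that strand was used in counting. Ccdc24 had 442, 222 and 350 counts in the WAS-labelled libraries and 284, 213 and 245 in the control-labelled ones, which is 73.2% to 77.9% of the Slc6a9 count in every library. Reads of the 2 genes can thus not be told apart in these tables, and the Slc6a9 values hold for the pair.

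Slc6a5 (chr7:49910146-49963856, plus strand), the gene of GlyT2 and a marker of neurons that release glycine, had 0 counts in all 6 libraries. A count of 0 allows up to 3 counts, or 0.286 to 0.324 CPM in these libraries. This includes WAS replicates 1 and 3, where Glra1 was high. A 0 in these tables does not by itself mean that no RNA was present: Drd2, a defining gene of striatal neurons, had at most 1 count in a library, although Drd1 had 350 to 3380 counts. Whether the counting covered the end of the Slc6a5 transcript was not tested.

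By mean level over the 6 libraries the order was Glrb, Gphn, Slc6a9, Glra1, Glra2 and Glra3, with 121, 68.3, 38.0, 18.9, 9.52 and 4.80 CPM. These are 3′ tags scaled to the library total and not divided by transcript length, because the method reads only the end of a transcript. Glrb was above Gphn, Gphn above Slc6a9, Slc6a9 above Glra1 and Glra2 above Glra3 in 6 of 6 libraries. Glra1 and Glra2 changed places, Glra1 being higher in 2 of 6 libraries, WAS replicates 1 and 3.

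In the fit over all genes, 1 of the 6 members tested, Glra1, met the study's criteria. These are a fold change of at least 1.5 together with an unadjusted p under 0.05. In this fit, 2.49% of all genes tested met them, or 380 genes. The paper normalized its counts by quantiles, and its own list of changed genes does not hold Glra1. Since the members were chosen with this contrast in view, nothing is read from this call or from any other call of a member in this paragraph. An adjusted p under 0.05 was reached by 0 members in edgeR (Benjamini-Hochberg), 0 in DESeq2, at a background of 0.16%, and 0 in limma. An unadjusted p under 0.05 in edgeR was reached by 2 of them, Glra1 and Slc6a9, at a background of 7.24%. Slc6a9 did not reach it without WAS replicate 1 (background 6.59%), WAS replicate 3 (4.27%), control replicate 2 (4.09%) or control replicate 3 (7.19%), without WAS replicate 1 and control replicate 2 together (4.43%), or with limma (5.7%). Neither gene reached it without WAS replicates 1 and 3 (5.39%). The groups overlapped for all 6 members, whereas they did not overlap for 12.2% of all genes tested. Without WAS replicate 2, Glra1, Glra3 and Slc6a9 met the study's criteria, at a background of 5.45%, and Glra1 and Slc6a9 had an adjusted p under 0.05 by edgeR, at a background of 3.18%. This setting leaves out the WAS-labelled library in which these genes lay within the control range, so its calls lend no support. Without WAS replicates 1 and 3, 0 members met the study's criteria at a background of 2.34%, and 0 had an adjusted p under 0.05 in edgeR at a background of 0.00656%. Glra3 joined Glra1 with total-count scaling (background 2.59%), with totals that leave out the ribosomal gene Rn45s (2.6%), without a filter on low counts (2.57%) and without control replicate 3 (2.92%). Glra1 alone met the criteria with DESeq2 (1.96%), limma (2.71%) and the filterByExpr filter (2.27%). It was also alone without WAS replicate 1 (2.22%), WAS replicate 3 (1.71%), control replicate 1 (2.11%) or control replicate 2 (1.75%), and without WAS replicate 1 and control replicate 2 together (1.72%). With the replicate number as a block, Glra1 alone met the criteria (2.74%) and had an adjusted p under 0.05 in edgeR (0.322%). The median log2 fold change of the 6 members was 0.36, beside 0.00088 over all genes tested.

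**Figure D3:**
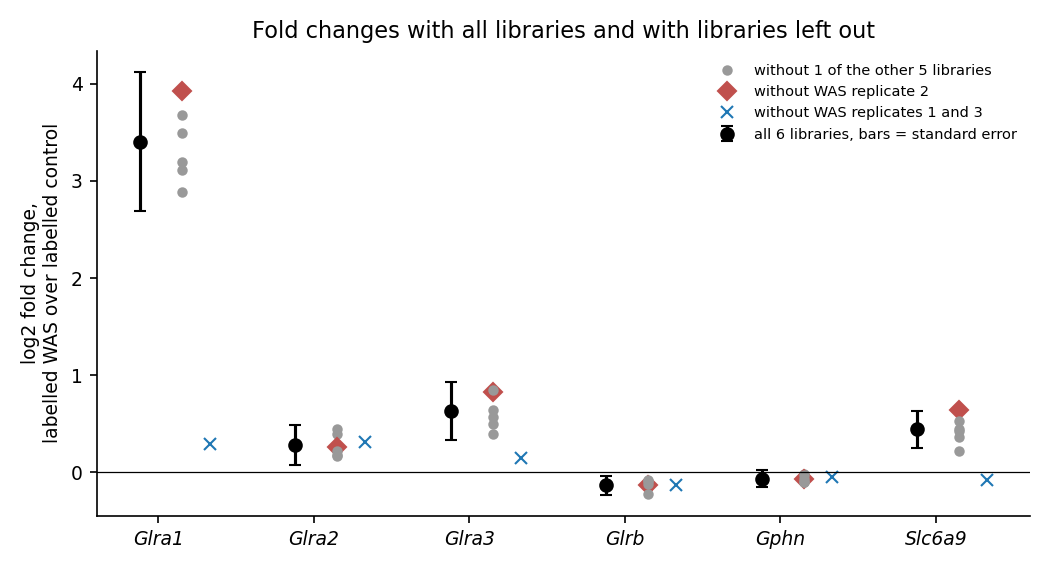
Log2 fold changes of the libraries labelled WAS over those labelled control for 6 members. Black points with standard error bars use all 6 libraries, grey points leave out 1 library, red diamonds leave out WAS replicate 2 and blue crosses leave out WAS replicates 1 and 3. Glra1 stays between 2.88 and 3.93 with 1 library left out and comes to 0.29 without WAS replicates 1 and 3.

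Glra1 was then set beside genes that mark brain regions. The summed level of 6 thalamic markers was 273 and 221 CPM in WAS replicates 1 and 3, 64.8 CPM in WAS replicate 2 and 34.4 to 62.6 CPM in the control-labelled libraries. Most of this sum came from Tcf7l2 in every library, with 234 and 173 CPM in WAS replicates 1 and 3. Of the 6 markers, 4 were higher in both of these libraries than in each of the other 4, and Gbx2 and Synpo2 were not. The summed level of the 17 midbrain markers was 113 and 176 CPM in WAS replicates 1 and 3, 35.6 CPM in WAS replicate 2 and 28.7 to 32.6 CPM in the controls. The libraries with high Glra1 were thus those with high thalamic and midbrain sums. The striatal sum went the other way, with 292 and 542 CPM in WAS replicates 1 and 3 against 2446 CPM in WAS replicate 2 and 1195 to 1706 CPM in the controls. The sum of cortex and hippocampus markers was lower in all 3 WAS-labelled libraries, at 882 to 941 CPM, than in the controls, at 983 to 1126 CPM. The sum of general neuron markers was likewise lower, at 4632 to 5130 CPM against 5282 to 5898 CPM. The part of these differences in the Glra1 values was not tested.

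Single markers showed the same split. Tcf7l2, a transcription factor of thalamic neurons that makes up most of the thalamic sum, had 2357, 388 and 1729 counts in WAS replicates 1, 2 and 3. The controls had 384, 214 and 383 counts. En1, a transcription factor that defines midbrain and anterior hindbrain, had 124, 1 and 157 counts against 0 counts in each control. Slc6a3, the dopamine transporter of midbrain neurons, had 107, 0 and 100 counts against 0, 3 and 3 counts. Apart from Phox2a, the genes of the hindbrain list were near 0: of 19 markers, 6 had 0 counts in every library, among them Hoxb2 and Lbx1. The few Hox counts lay mostly in WAS replicate 3, with 8 of Hoxb3, 4 of Hoxa2 and 3 of Hoxb5, against at most 1 of each elsewhere. Tph2 and Slc6a4, genes of serotonin neurons placed in the midbrain list, had 102 and 97 counts in WAS replicate 3. They had 7 and 14 counts in WAS replicate 1. Whether hindbrain content differed between libraries was not tested. The sum of the hindbrain list, 22.3 to 34.0 CPM over all 6 libraries, came almost wholly from Phox2a, with 222 to 354 counts. Of 5 cerebellar markers, the granule cell genes Gabra6, Fat2 and Cbln3 had at most 1, 2 and 10 counts in a library, whereas the Purkinje cell genes Pcp2 and Car8 had 137 to 252 counts. The sum of the 5 was 34.0 to 41.0 CPM over all 6 libraries.

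**Figure D4:**
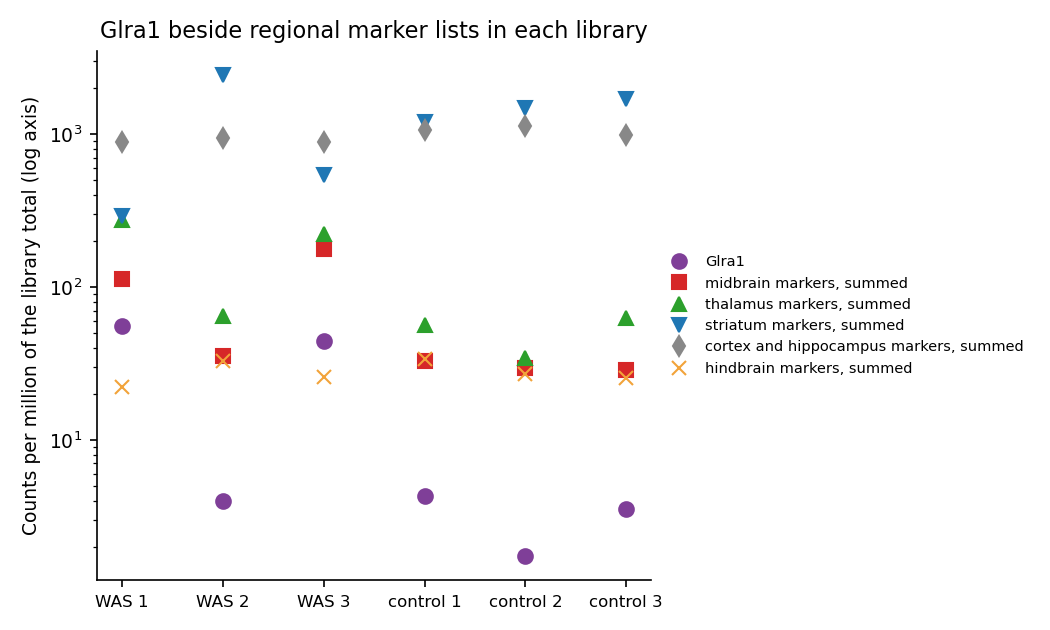
Glra1 and the summed levels of 5 regional marker lists in each library, in CPM of the library total on a log axis. In WAS replicates 1 and 3, Glra1 (55.5 and 44.1 CPM), thalamic and midbrain sums are high and the striatal sum is low, and the sum of cortex and hippocampus is 882 to 941 CPM in the WAS-labelled libraries against 983 to 1126 CPM in the controls.

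The genes whose pattern over the 6 libraries was most like that of Glra1 were Shox2, Lhx9 and Tcf7l2. Likeness was measured as the mean absolute difference in log2(CPM + 1) after centring each gene on its own mean, among 11167 genes with a mean of at least 50 counts. The difference was 0.41 for Shox2, 0.44 for Lhx9 and 0.45 for Tcf7l2, over a Glra1 range of 4.37 on the same scale, and only 4 genes came within 0.5. Shox2 had 1159, 133 and 732 counts in the WAS-labelled libraries and 119, 17 and 65 in the control-labelled ones. Lhx9 had 190, 20 and 133 counts against 37, 2 and 15. All 3 are transcription factor genes, and like Glra1 they were high in WAS replicates 1 and 3 and lowest in control replicate 2. Tcf7l2 is the same gene that leads the thalamic list above.

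For the other members, the search said less because their own range was small. Slc6a9 was most like Ccdc24, the gene on the opposite strand, with a difference of 0.026. The nearest genes of Gphn were Dynll1 (0.015), which encodes a dynein light chain that binds gephyrin, Mpv17 (0.017) and Zfp513 (0.018), but 11063 genes came within 0.5 of it. Glrb was nearest to D19Bwg1357e (0.018), Glra2 to Gng11 (0.033) and Glra3 to Tmem150c (0.070), with between 10551 and 11040 genes within 0.5 of each.

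The wider pathway was followed in 4 lists of 54 genes that hold no member, of which 46 were tested. By edgeR, 1 of the 46 met the study's criteria, at the background of 2.49%. That gene was higher in the WAS-labelled libraries, where 1.82% of all genes tested were called in this direction, and 0 were lower, where the background was 0.676%. Of the 46, 0 reached an adjusted p under 0.05 in edgeR (Benjamini-Hochberg), DESeq2 or limma, and 3 had an unadjusted p under 0.05 in edgeR, where the background was 7.24%. These were Mdga1, Slc36a1 and Gcsh, of which the last 2 were named after their values were seen.

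The list of gephyrin partners and the inhibitory postsynapse had 15 genes, all tested, 10 with a log2 fold change above 0 and a median of 0.045. Mdga1, whose product binds neuroligins and limits synapse formation, met the criteria with 310, 151 and 303 counts in the WAS-labelled libraries against 131, 127 and 210 in the control-labelled ones. Like Glra1, Mdga1 is absent from the paper's own list of changed genes. The highest 2 libraries were WAS replicates 1 and 3 here too, and WAS replicate 2 lay within the control range. The log2 fold change of Mdga1 was 0.72 with a standard error of 0.26 and, in edgeR, an adjusted p of 0.616. Over the alternatives the edgeR adjusted p of Mdga1 was lowest, 0.0194, when WAS replicate 2 was missing and highest, 0.9998, when control replicate 2 was, and without WAS replicates 1 and 3 its log2 fold change was 0.058. Dynll2, a dynein light chain gene and the most abundant of the list, was at 889 ± 33.2 CPM (SD, n = 3) in the WAS-labelled libraries against 853 ± 44.6 CPM (SD, n = 3) in the control-labelled ones. Without WAS replicate 2, Mdga1 and Enah, which encodes an actin regulator, had an adjusted p under 0.05 by edgeR, with log2 fold changes of 0.97 and 0.35.

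Of 10 genes of glycine transport and the further receptor gene Glra4, 8 were tested, 4 with a log2 fold change above 0 and a median of 0.010. Glra4 and Slc6a14 were too low to test. Slc32a1, the vesicular transporter that loads both GABA and glycine, had 1166, 1861 and 1280 counts in the WAS-labelled libraries and 1401, 1452 and 1659 in the control-labelled ones. For this gene WAS replicates 1 and 3 were the lowest 2 libraries and WAS replicate 2 the highest, and its log2 fold change was -0.02 (standard error 0.18). Slc38a1 and Slc38a2, carriers of small neutral amino acids, were the most abundant, with log2 fold changes of 0.05 and 0.04 (standard errors 0.09 and 0.15). Slc36a1 had a log2 fold change of -0.29 with a standard error of 0.11 and, in edgeR, an adjusted p of 0.625.

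In the synthesis and breakdown of glycine and serine, 14 of 18 genes were tested, 7 above 0 and 7 below, with a median of -0.0030. Gcsh, the lipoate-carrying protein of the glycine cleavage system, had 349, 310 and 397 counts in the WAS-labelled libraries and 304, 291 and 309 in the control-labelled ones. Its groups did not overlap in CPM, as for 3 of the 46 list genes tested (with Lhfpl4 and Gcat) and 12.2% of all genes tested, and its log2 fold change was 0.26, with a standard error of 0.11 and, in edgeR, an adjusted p of 0.681. The 2 most abundant genes, Srr (serine racemase) and Psat1 (phosphoserine aminotransferase), had log2 fold changes of -0.05 and -0.02 (standard errors 0.10 and 0.09). For the molybdenum cofactor, which gephyrin helps to make, 9 of 11 genes were tested, with a median of 0.066. Marc2 and Mocs2, the most abundant of them, were at 87.2 ± 3.03 and 45.7 ± 6.33 CPM (SD, n = 3 each) in the WAS-labelled libraries against 86.7 ± 5.55 and 42.6 ± 2.02 CPM (SD, n = 3 each) in the control-labelled ones.

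**Figure D5:**
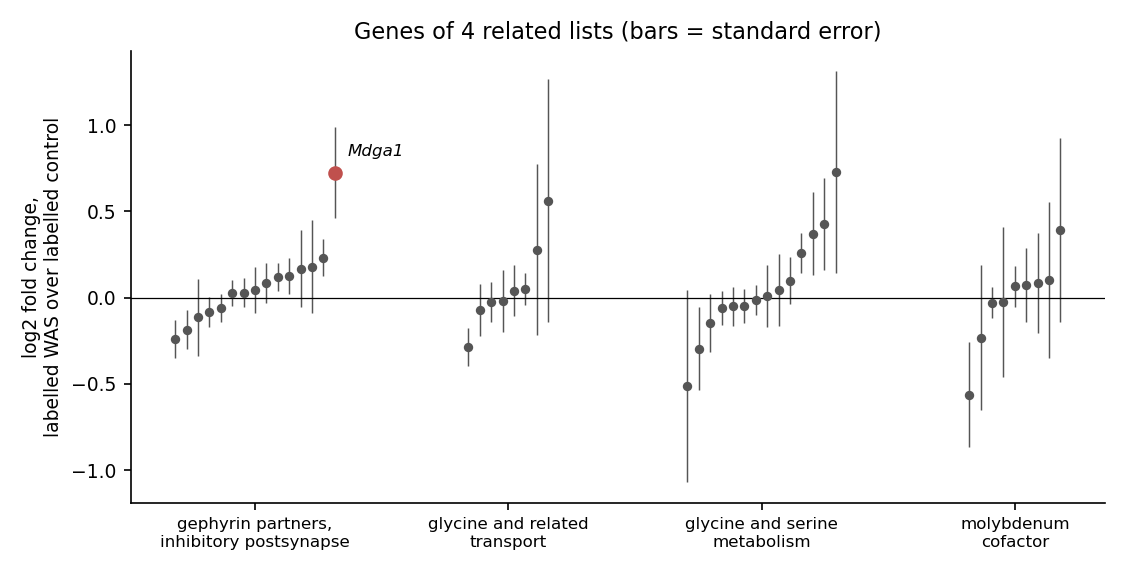
Log2 fold changes with standard errors for the 46 genes tested in 4 lists around glycine and gephyrin, ordered within each list. Mdga1 (0.72) is the gene past the study's criteria, in red, and the list medians lie between -0.0030 and 0.066.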

How the data were processed

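RNA-seq of 6 libraries, 3 per labelled group, was used. According to the methods, the authors made QuantSeq 3′ mRNA-Seq libraries, read 75 bp from one end, and mapped the reads with Bowtie2. Alignments, multiple ones included, were tallied by Bedtools coverage, so overlapping genes can share reads. The submitters' processing notes name mm10. Versions and annotation are not given in the sources used here. The deposited values are raw read counts of 23282 entries named by symbol, 44 of them repeats of a symbol.

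Counts were scaled by TMM and tested with edgeR 4.0.16 (quasi-likelihood, Benjamini-Hochberg) in R 4.3.3 on the 15239 genes with a mean log2(quantile-normalized count + 1) of at least 2, a reading of the study's cutoff. Library values are CPM of the library total with the SD over 3 libraries. Standard errors were taken from the fold change and its F statistic. Direction is WAS over control by the labels. The alternatives were total-count scaling, totals without the ribosomal gene Rn45s (4.96% to 7.32% of counts), DESeq2 1.42.0, limma 3.58.1, no filter, filterByExpr, a replicate block and libraries left out. The fit was tested on simulated data.

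The members and lists were chosen with earlier results of these data known. Genes named are the members, the genes of each list past the study's criteria and its 2 most abundant, markers of regions that moved with Glra1, and the 3 genes most like each member (for Glra2, Glra3, Glrb and Slc6a9 the nearest alone is given). Slc32a1, Slc36a1, Gcsh, Gcat, Lhfpl4, Enah, Drd2, Gbx2, Synpo2, Tph2, Slc6a4 and the astrocyte, hindbrain and cerebellar markers were named after their values were seen. One gene that this rule gives is not reported here. Positions, overlaps and sequences are from GENCODE M21 (GRCm38).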

Additional observations from a re-analysis of the deposited data

How the results depend on the processing

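Of 90 values of the members' log2 fold changes under 15 alternatives, 87 moved by less than the SD between replicates. The other 3 came from leaving out WAS replicates 1 and 3, chosen after seeing the data, which gave 0.29 for Glra1, 0.15 for Glra3 and -0.085 for Slc6a9, where WAS replicate 2 alone is assumed to vary like the controls. Leaving out WAS replicate 1 and control replicate 2, also chosen after seeing the data, gave 2.59 for Glra1, 0.33 for Glra3 and 0.14 for Slc6a9. These shifts were within the SD between replicates, which was 1.41 for Glra1 and 0.33 for Slc6a9 on the log2 scale. The split among the WAS-labelled libraries itself widens that SD, so 87 of 90 is a lenient measure of stability. With 1 library left out in turn, 261 to 831 genes met the study's criteria, the highest without WAS replicate 2, and 0 to 484 had an adjusted p under 0.05, again the highest without WAS replicate 2. In the lists, 0 to 2 genes met the criteria with 1 library left out, against 1 in all 6 libraries: 0 if WAS replicate 3 or either of control replicates 1 and 2 was missing, and 2, Mdga1 and Alas2, without control replicate 3. With WAS replicate 1 left out and with limma, the 1 gene was Xdh in place of Mdga1. With WAS replicates 1 and 3 left out it was 0 genes of the lists and 1 gene past an adjusted p of 0.05 over all genes, and with WAS replicate 1 and control replicate 2 left out it was 0 genes of the lists. DESeq2 gave 22 genes past an adjusted p of 0.05 in place of 0. With the replicate number as a block, 49 genes passed an adjusted p of 0.05, Glra1 among them (log2 fold change 3.21, standard error 0.33), a call it did not have without the block. The replicate numbers were not taken as pairs: the correlations of same-numbered deviations were 0.066, 0.085 and 0.087, although 6 of 6 libraries correlated best with their own number, as a hint from the data. At this depth, Glra3, with 32 to 77 counts, and Slc6a5, with 0, are limited by counting, and 3 libraries per group limit every comparison.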
